A study of Mus musculus with 53 samples.

Results

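A set of 10 genes of the TGF-beta pathway was followed through the counts of all 53 libraries: the 3 ligands Tgfb1, Tgfb2 and Tgfb3, the 3 receptors Tgfbr1, Tgfbr2 and Tgfbr3, and the 4 SMADs Smad2, Smad3, Smad4 and Smad7. They were chosen by name, as the matrix entries whose Ensembl identifiers carry these 10 symbols among 55421 genes. All 10 were found once and all 10 passed the filter on low counts in each comparison.

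TGF-beta ligands are secreted in a latent form and, once released, bind the type II receptor encoded by Tgfbr2, which recruits and phosphorylates the type I receptor ALK5 encoded by Tgfbr1. ALK5 phosphorylates the receptor SMADs encoded by Smad2 and Smad3, which enter the nucleus with the common partner encoded by Smad4, while Smad7 encodes an inhibitory SMAD that blocks the receptor. In the gut the pathway restrains epithelial growth and drives matrix production in the stroma. Tgfbr3 encodes betaglycan, a co-receptor that presents ligand.

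The study asked how BRAF activation and loss of ALK5 in the gut epithelium change the tissue before and during tumour growth, beside Apc loss. Every mouse carried VilCreER, a tamoxifen-inducible Cre driven by the villin promoter and so active in epithelium, on a C57BL/6J background (mixed, N6, or inbred, N9, for WT SI and the Apcfl/+ tumours). BA mice carried BrafV600E/+ and Alk5fl/fl, and A mice Alk5fl/fl alone. From the proximal colon came 4 BA primary tumours, 3 WT samples (WT PC) and, at day 30 (d30) post induction, 5 BA, 5 antibiotic-treated BA, 4 A, 4 sulindac-treated A and 4 WT samples. From the small intestine came 5 primary tumours of Apcfl/+ mice with 3 WT samples (WT SI), and at day 4 (d4) post induction 10 samples of Apcfl/fl mice with 6 WT samples. WT mice carried VilCreER alone. Antibiotics (ampicillin, neomycin and metronidazole at 1 g/L each, vancomycin at 500 mg/L) and sulindac (0.4 g/L, for 14 days), an inhibitor of cyclooxygenases, were given in drinking water. The study used sulindac for a short window of wounding and inflammation. It began on the day after the first tamoxifen dose, so the d30 samples were taken after sulindac had been stopped. Per the methods, mice entered the study at 6 to 12 weeks of age.

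All libraries were made from whole tissue, so a change in the share of a cell type and a change of RNA per cell cannot be told apart. For the same reason the Tgfbr1 count of the floxed groups can hold reads of stroma that keeps the allele, and a count over the whole gene also takes reads from exons outside a deletion. Reads on genes ran from 516985 to 32824795 per library, and the lowest total but for Apcfl/fl d4 replicate 1 was 10005066. That library and Apcfl/fl d4 replicate 8, BA tumour replicate 2 and Apcfl/+ tumour replicate 2 stood apart, with a median correlation of at most 0.895 with their group, against at least 0.934 in the others. Apcfl/+ tumour replicate 2 is labelled small intestine but held Car1, a carbonic anhydrase of the colonic epithelium, at 171 CPM and Lct, a small intestinal enzyme, at 2.76 CPM. BA tumour replicate 2, labelled proximal colon, held Lct at 160 CPM (at most 2.95 in WT PC), and the BA tumours held Car1 at 998 to 5100 CPM against at least 12400 in WT PC. The Y-linked gene Ddx3y was above 10 CPM in 3 of 4 BA tumours but in 0 of 3 WT PC, and in 1 of 5 Apcfl/+ tumours but in 3 of 3 WT SI, so sex and genotype cannot be fully told apart in either tumour comparison. It was above 10 CPM in all day-30 libraries, and in 4 of 10 Apcfl/fl d4 and 4 of 6 WT d4 libraries. The transcript Gm13394 was above 10 CPM in all libraries of all 4 other day-30 groups but in 0 of 4 d30 WT libraries, in 3 of 4 BA tumours but in 0 of 3 WT PC, and in 3 of 3 WT SI but in 0 of 5 Apcfl/+ tumours. What made it differ is not in the labels, and its source and the genotype cannot be told apart in those comparisons.

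The promoters of 4 members that were higher in BA tumours are shown because these genes rose together. Each window holds 250 bases before the start, 5′ to 3′ on the gene's strand, from RefSeq on GRCm38.p6. A window was kept for 5 of the 10 members. Windows of Smad2, Smad4 and Smad7 were left out, and Tgfb3, also higher in BA tumours, had none. Capitals mark matches on either strand of the SMAD-binding letters CAGAC or the GC box GGGCGG. Tgfb1 (ENSMUSG00000002603) lies at chr7:25687002-25705077 on the plus strand and its window at chr7:25686752-25687001. Tgfbr1 (ENSMUSG00000007613) lies at chr4:47353222-47414931 on the plus strand and its window at chr4:47352972-47353221. Tgfbr2 (ENSMUSG00000032440) lies at chr9:116084293-116175360 on the minus strand and its window at chr9:116175364-116175613. Smad3 (ENSMUSG00000032402) lies at chr9:63646767-63757994 on the minus strand and its window at chr9:63757995-63758244.
Tgfb1: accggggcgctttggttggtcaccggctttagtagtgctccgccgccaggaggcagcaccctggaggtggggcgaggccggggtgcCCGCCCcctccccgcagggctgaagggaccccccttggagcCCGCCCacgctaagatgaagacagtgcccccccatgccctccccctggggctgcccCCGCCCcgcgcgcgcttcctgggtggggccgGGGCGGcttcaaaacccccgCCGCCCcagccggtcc
Tgfbr1: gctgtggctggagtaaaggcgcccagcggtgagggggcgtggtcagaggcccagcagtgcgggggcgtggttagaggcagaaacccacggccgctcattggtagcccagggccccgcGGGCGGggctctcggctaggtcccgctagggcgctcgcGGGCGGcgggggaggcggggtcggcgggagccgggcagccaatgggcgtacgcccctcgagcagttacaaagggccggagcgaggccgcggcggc
Tgfbr2: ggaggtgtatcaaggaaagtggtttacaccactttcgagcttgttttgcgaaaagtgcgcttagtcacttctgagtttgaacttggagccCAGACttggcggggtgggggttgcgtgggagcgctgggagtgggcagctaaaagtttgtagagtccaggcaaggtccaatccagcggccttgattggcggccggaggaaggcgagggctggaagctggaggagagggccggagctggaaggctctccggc
Smad3: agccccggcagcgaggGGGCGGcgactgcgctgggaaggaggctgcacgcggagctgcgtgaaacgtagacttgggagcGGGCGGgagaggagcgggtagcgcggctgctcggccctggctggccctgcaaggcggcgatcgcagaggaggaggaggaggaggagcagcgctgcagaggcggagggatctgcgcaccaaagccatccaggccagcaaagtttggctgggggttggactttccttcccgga
Tgfb1 held 5 GC boxes, Tgfbr1 and Smad3 held 2 each, and Tgfbr2 held 1 CAGAC. Among all 32851 promoters of that length with them, 32.7% held a GC box and 42.2% CAGAC. The forms CTTTGAT and CTTTGAA bound by TCF factors, held by 3.21% and 4.46% of promoters, and the AP-1 form TGANTCA, held by 6.75%, had no match in these windows. The GC content was 75.2% in Tgfb1, 74.8% in Tgfbr1, 69.2% in Smad3 and 58.4% in Tgfbr2, against a median of 52.4% over all promoters.

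Levels are given as CPM (read counts scaled to one library size, set over all 53 libraries), and per kilobase of exon where genes are compared with each other. Smad4 had the highest mean per kilobase in 9 of the 11 groups, from 22.8 CPM per kb in WT PC to 46.6 in WT d4 SI. In the BA and Apcfl/+ tumours Tgfbr2 came first, at 43.1 ± 11.3 (SD, n = 4) and 28.8 ± 2.64 (SD, n = 5) CPM per kb. Smad4 came next there, at 40.1 ± 12.8 and 27.9 ± 2.32 CPM per kb, so the order of these genes is uncertain. Tgfb2 was the lowest member in all 11 groups, from 0.522 CPM per kb in WT SI to 1.45 in d30 WT. Reads that Tgfb2, Tgfb3 and Tgfbr3 share with overlapping genes (Gm29491, Gm37804 and Gm48008, and Gm43422) could have been split or dropped, so their levels are less certain. On GRCm38, Tgfb2 (ENSMUSG00000039239) lies at chr1:186622792-186705989, Tgfb3 (ENSMUSG00000021253) at chr12:86056745-86079041 and Tgfbr3 (ENSMUSG00000029287) at chr5:107106570-107289629, all on the minus strand, and the other SMADs are ENSMUSG00000024563 (Smad2), ENSMUSG00000024515 (Smad4) and ENSMUSG00000025880 (Smad7).

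**Figure D1:**
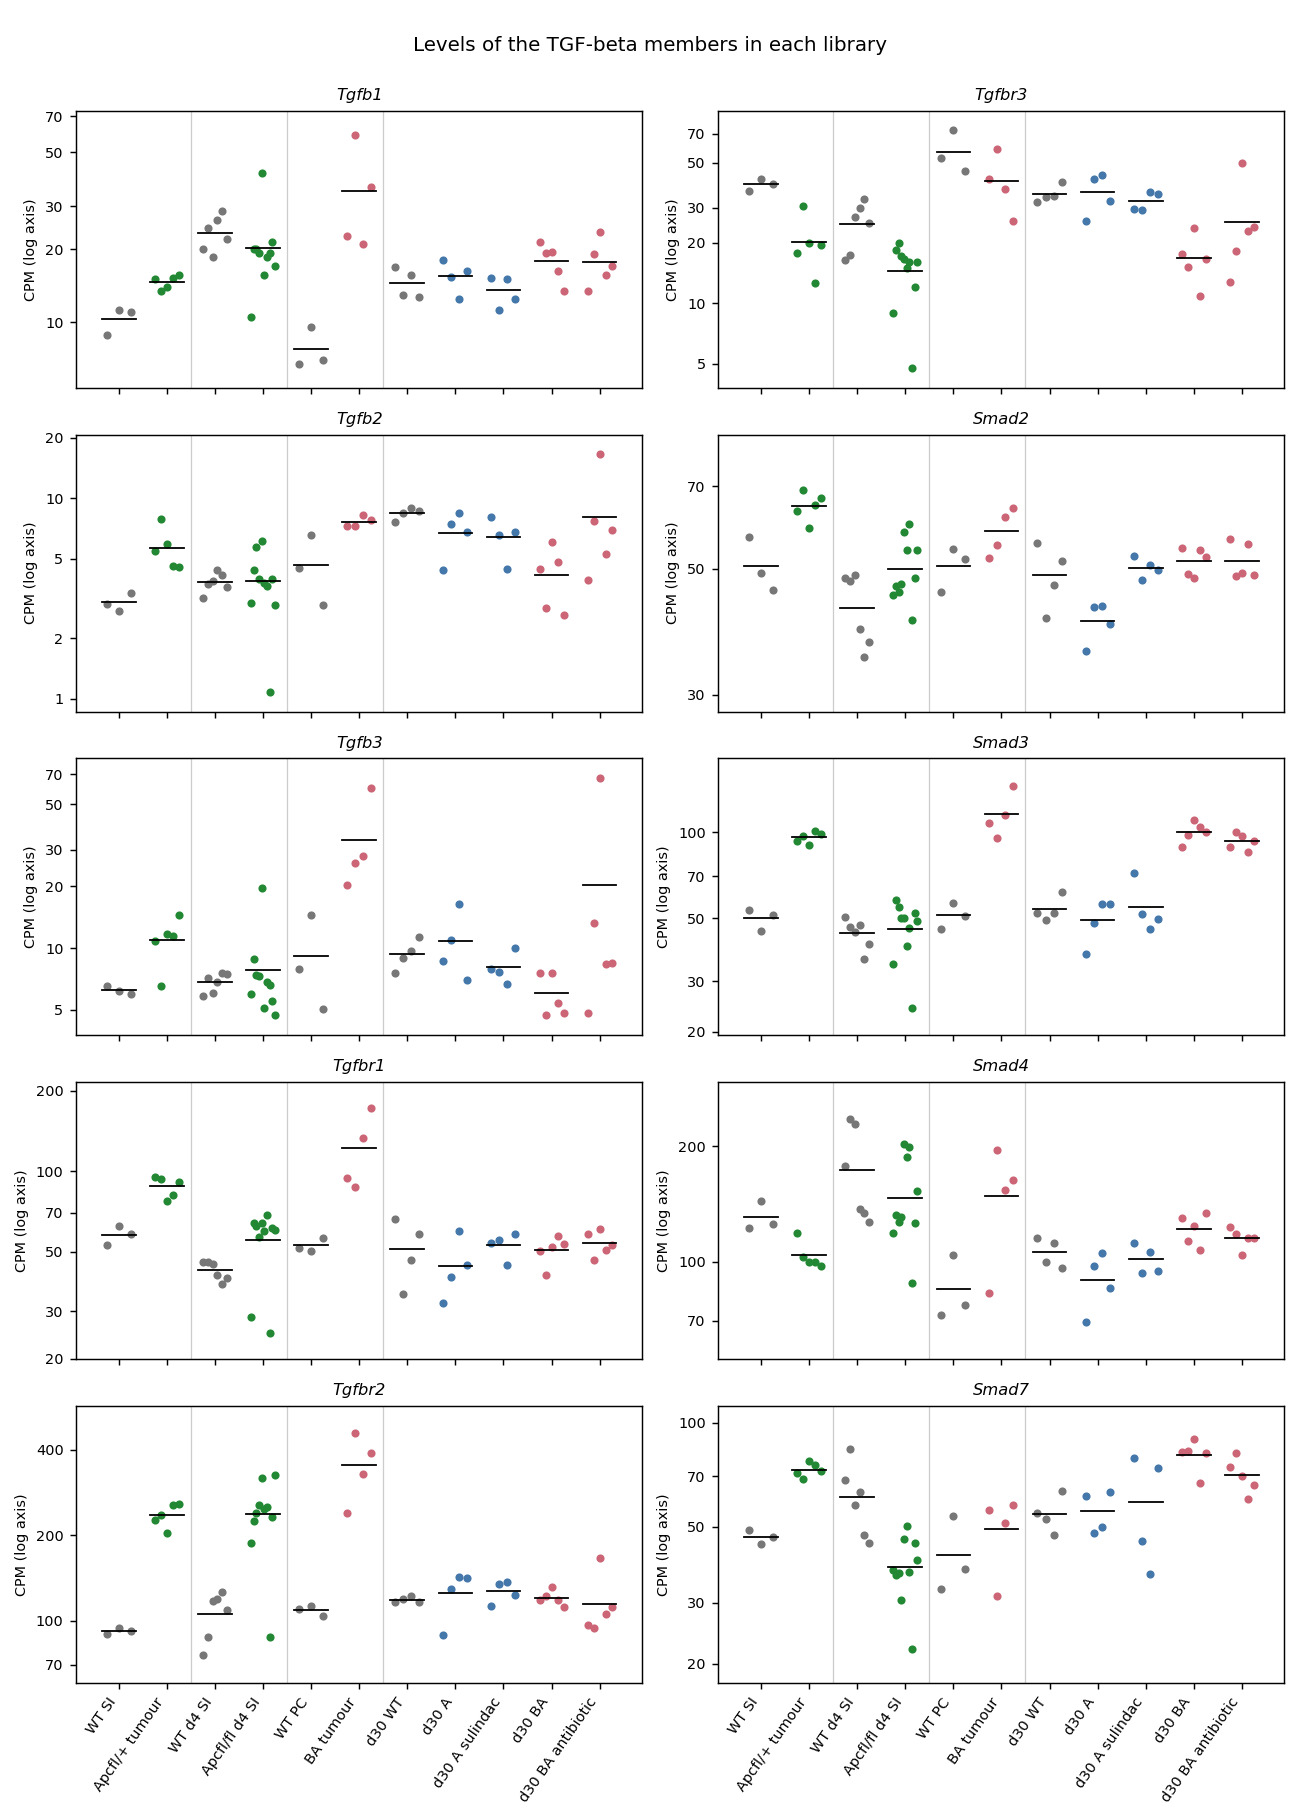
Level of each member in every library, in CPM on a log axis, with 1 panel a gene and 1 point a library; black lines mark group means and grey points WT groups. The tumour points of Tgfbr2 (lowest 204 CPM) lie above all points of WT PC and WT SI (highest 113 CPM).

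Among the ligands, Tgfb1 was highest in BA tumours, at 34.6 ± 17.5 CPM (SD, n = 4), and lowest in WT PC, at 7.76 ± 1.55 CPM (SD, n = 3). In the order of the 11 group means for Tgfb1, neighbouring groups overlapped but for d30 A sulindac, at 11.3 to 15.2 CPM, over WT SI, at 8.86 to 11.2 CPM. Tgfb3 was also highest in BA tumours, at 33.5 ± 17.9 CPM, and lowest in d30 BA, at 6.01 ± 1.45 CPM (SD, n = 5). Tgfb2 ran from 3.02 ± 0.319 CPM in WT SI to 8.4 ± 0.542 CPM in d30 WT (SD, n = 3 and 4). All neighbours in the orders of Tgfb2 and Tgfb3 overlapped.

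The receptors fell into a few steps. Tgfbr1 had a mean of 122 ± 39.2 CPM in BA tumours and 87.8 ± 7.7 CPM in Apcfl/+ tumours, and the next group, WT SI at 58 ± 4.67 CPM, did not overlap with the latter. The other 8 groups held 42.6 to 55.2 CPM of Tgfbr1, each overlapping with its neighbours. For Tgfbr2, BA tumours, Apcfl/fl d4 and Apcfl/+ tumours had means of 353, 237 and 236 CPM. The next group, d30 A sulindac at 127 ± 11.2 CPM, did not overlap with Apcfl/+ tumours. It did overlap with Apcfl/fl d4, where replicate 8 held 88 CPM. Tgfbr3 was highest in WT PC, at 56.9 ± 14.1 CPM, and lowest in Apcfl/fl d4, at 14.5 ± 4.65 CPM, with overlap between all neighbours.

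Of the SMADs, Smad3 had a gap between 4 groups with means of 92.8 to 116 CPM, namely BA tumours, d30 BA, Apcfl/+ tumours and antibiotic-treated d30 BA, and 7 groups with means of 44.3 to 54.7 CPM. The lowest library of the upper groups, an antibiotic-treated one, held 85.3 CPM and the highest of the lower groups, a sulindac-treated one, 72 CPM. Smad2 varied least, from 40.4 ± 3.36 CPM in d30 A to 64.5 ± 3.74 CPM in Apcfl/+ tumours. Smad4 ran from 84.5 ± 16.9 CPM in WT PC to 173 ± 48.8 CPM in WT d4 SI, and Smad7 from 38.1 ± 8.08 CPM in Apcfl/fl d4 to 80.7 ± 8.27 CPM in d30 BA. Neighbours in the orders of Smad2, Smad4 and Smad7 overlapped throughout.

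BA tumours held more RNA of 2 of the 3 ligands, 2 of the 3 receptors and 1 of the 4 SMADs than WT proximal colon. Tgfb1 was at 22.6, 59, 21 and 35.9 CPM in the 4 tumours and at 6.74, 9.55 and 7 CPM in the 3 WT PC samples. Every tumour lay above every WT PC sample, and Tgfb1 was 4.57-fold higher (log2 2.19, SE 0.41, adjusted p = 0.0105, edgeR quasi-likelihood test). Tgfb3 was at 20.2, 25.9, 27.9 and 59.9 CPM against 7.86, 14.4 and 5.05 CPM, with no overlap and a log2 change of 1.9 (SE 0.47, adjusted p = 0.029). Tgfb2 was at 7.31 to 8.22 CPM against 2.95 to 6.56 CPM, and its change of 0.73 did not pass (adjusted p = 0.164).

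Both signalling receptors rose in the tumours. Tgfbr2 was at 239, 456, 328 and 388 CPM against 110, 113 and 104 CPM, or 3.3-fold higher (log2 1.72, SE 0.28, adjusted p = 0.0067). Tgfbr1, the gene floxed in these mice, was at 94.1, 87.6, 133 and 172 CPM against 51.9, 50.4 and 56.3 CPM. It was thus higher, not lower, in tissue labelled Alk5fl/fl, by 1.22 on the log2 scale (SE 0.25, adjusted p = 0.0156). Tgfbr3 did not pass (log2 -0.45, adjusted p = 0.374).

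Smad3 was at 108, 95.5, 115 and 145 CPM in BA tumours and 45.7, 56.7 and 50.8 CPM in WT PC, again without overlap (log2 1.2, SE 0.2, adjusted p = 0.00689). Smad4 (log2 0.84, adjusted p = 0.112), Smad2 (0.23, 0.434) and Smad7 (0.26, 0.56) did not pass. In all, 5 members were higher and 0 lower, where 13.2% of all 19188 genes tested passed in either direction and 7.46% were higher. The median log2 change was 1.02 over the members and 0.03 over all genes. Without tumour replicate 2, which stands apart, 5 members were again higher and 0 lower, with Tgfb1 at 1.76. Without WT PC replicate 1 a single member passed, and 696 genes in all in place of 2527. Tgfbr1 no longer passed when any WT PC sample was left out. Without WT PC replicate 3, 3 members and 1089 genes passed, and without tumour replicate 4, 4 members and 1380 genes.

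The genes of TGF-beta latency and activation were mostly higher in BA tumours too. Of 12 genes of latency and activation 11 rose and 0 fell, with a median log2 change of 1.45. Ltbp2, which encodes a latent TGF-beta binding protein, rose from 1.09 to 2.19 CPM in WT PC to 142 to 368 CPM in the tumours, by 7.13 on the log2 scale (SE 0.48, adjusted p = 0.000252). Itgb8, an integrin subunit that activates latent ligand, rose by 4.11 and Thbs1, a matrix protein that does so too, by 3.72. Ltbp4 was at -0.07 and did not pass (adjusted p = 0.924).

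Among TGF-beta target genes 11 of 16 rose and 0 fell. Ccn2, a matricellular protein, rose by 4.47, Timp1, a metalloproteinase inhibitor, by 4.45, and Fn1, fibronectin, by 2.23, while Snai2 was at -0.49 (adjusted p = 0.404). The paper names Ccn2, as Ctgf, among classic targets of YAP, and which pathway raised these genes was not tested. Il11, an interleukin of stromal cells, was at 2.23 to 5.63 CPM in the tumours but at 0.169 to 0.191 CPM in WT PC, close to the level of 3 counts, so no fold is given. Of 13 feedback genes and co-factors 4 rose and 2 fell, with Pmepa1, a membrane inhibitor of the pathway, at 2.43 and Smad6, an inhibitory SMAD, at -1.12 (adjusted p = 0.0193). In the activin branch 4 of 9 rose and 0 fell, led by Inhbb (3.44) and Inhba (3.36), the activin subunits, with Acvr1c lowest at -1.96 (adjusted p = 0.0563).

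**Figure D2:**
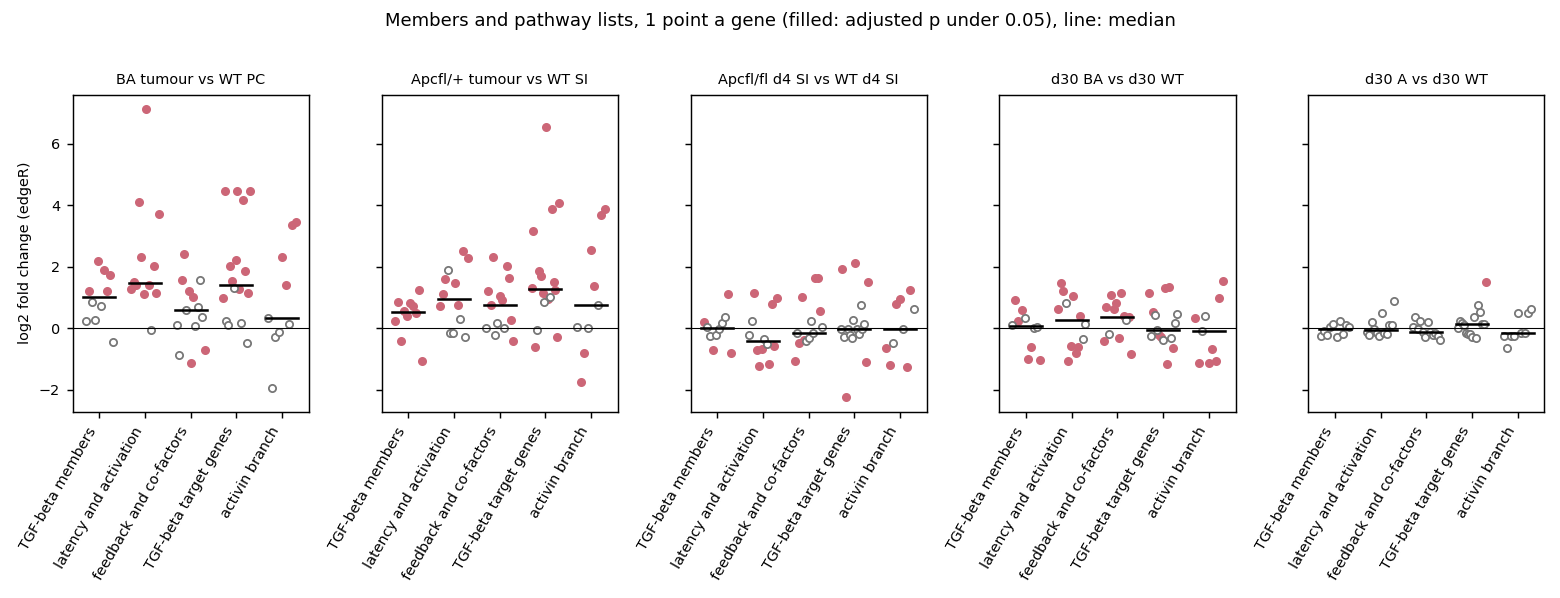
Log2 fold change of each member and of each gene of 4 pathway lists in 5 comparisons; 1 point a gene, filled where the adjusted p passed 0.05, with a black line at the list's median. In BA tumours 11 of 12 genes of latency and activation were higher, and in d30 A tissue the 1 filled point is Timp1, at 1.51.

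Markers of several cell types differed between BA tumours and WT PC, and their part in these changes was not tested. Summed neutrophil markers were at 21.6 to 93.2 CPM in the tumours against 4.2 to 6.21 CPM, with all 6 tested of 8 higher. Endothelial markers were at 132 to 295 against 86.6 to 107 CPM (5 of 6 higher), and B and plasma cell markers had 4 of 6 higher. Fibroblast markers were at 1000 to 1370 against 796 to 1110 CPM (3 of 10 higher) and macrophage markers at 399 to 1180 against 336 to 418 CPM (1 of 8 higher). Smooth muscle markers had 3 of 8 lower, enteric glia and neuron markers 1 of 6 lower, epithelial markers 1 of 10 higher, and no T cell marker passed. No marker of these lists was at 0 in either group.

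**Figure D3:**
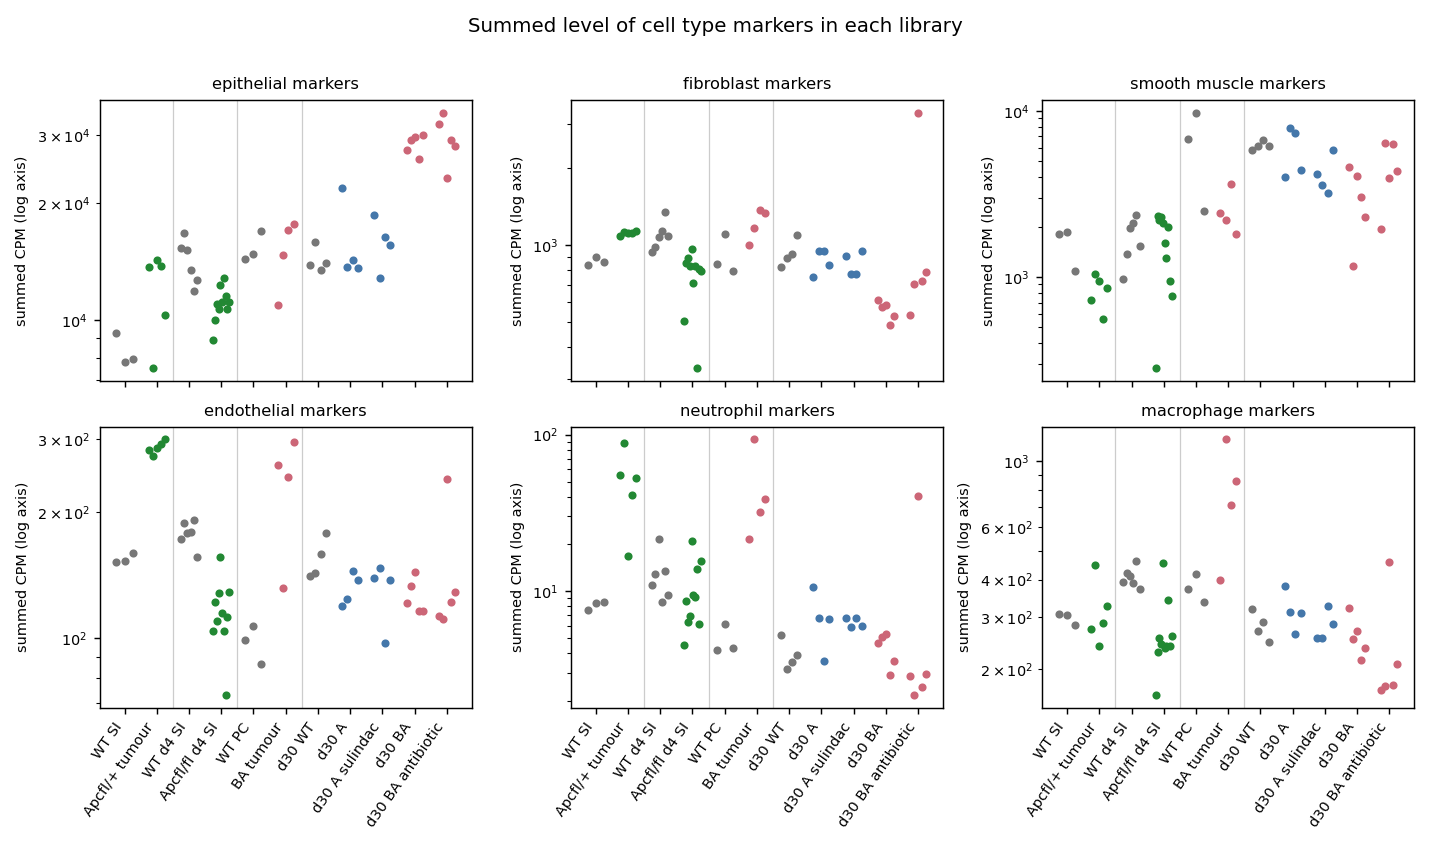
Summed CPM of the markers of 6 cell types in each library, on log axes, with 1 point a library and WT groups in grey. Epithelial markers summed to 26000 to 30000 CPM in d30 BA against 13500 to 15900 in d30 WT, and fibroblast markers reached 3310 CPM in 1 antibiotic-treated d30 BA library.

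Apcfl/+ tumours of the small intestine differed from WT SI in most genes: 61.5% of 20567 tested passed, so a count of members says little by itself. All 10 members passed, 8 higher and 2 lower, with a median log2 change of 0.52 over the members and 0.03 over all genes. Tgfbr2 was at 227, 235, 204, 255 and 257 CPM in the tumours and at 89.6, 94.7 and 92.3 CPM in WT SI (log2 1.25, SE 0.1, adjusted p = 4.24e-05). Smad3 was at 93.3, 96.6, 90.4, 101 and 98.8 CPM against 53.4, 45.2 and 51.1 CPM (log2 0.84, SE 0.08, adjusted p = 7.68e-05). The tumours did not overlap with WT SI in either gene.

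The other risen members changed less in Apcfl/+ tumours. Tgfb2 was higher by 0.81, Tgfb3 by 0.72, Smad7 by 0.55, Tgfbr1 by 0.5, Tgfb1 by 0.4 and Smad2 by 0.25 on the log2 scale, with adjusted p from 0.000403 for Smad7 to 0.0395 for Smad2. Smad2 lost its call in 5 of 8 fits that left out 1 library, and Tgfb1, Tgfb2, Tgfb3 and Smad2 lost theirs with upper quartile scaling. Tgfbr3 fell, from 36.1, 41.8 and 39.5 CPM to 17.8, 30.7, 20, 12.6 and 19.6 CPM (log2 -1.05, SE 0.24, adjusted p = 0.00545). Smad4 fell from 122, 144 and 125 CPM to 119, 103, 99.9, 100 and 97.1 CPM (log2 -0.43, SE 0.1, adjusted p = 0.0046). Without tumour replicate 2 the counts were again 8 higher and 2 lower.

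Of the pathway lists, 7 of 12 genes of latency and activation rose in Apcfl/+ tumours, with Mmp14, a membrane metalloproteinase, highest at 2.51 and Nrros lowest at -0.27 (adjusted p = 0.504). Among feedback genes and co-factors 8 of 13 rose and 1 fell: Pmepa1 rose by 2.33, the homeobox repressor Tgif1 by 2.03 and Zfyve9, an anchor for SMADs, was at -0.42 (adjusted p = 0.00222). Among target genes 11 of 16 rose and 2 fell, Timp1 by 4.08 higher and Cdkn1a at -0.62 (adjusted p = 0.0391), and Il11 was at 8.37 to 45.9 CPM against 0.188 to 0.354 CPM. In the activin branch 4 of 9 rose and 2 fell, with Inhbb at 3.89, Inhba at 3.67 and Acvr1c at -1.74 (adjusted p = 0.00472). Beside these, endothelial markers had 5 of 6 higher, neutrophil markers 4 of 6 tested higher, fibroblast markers 6 of 10 higher and 2 lower, epithelial markers 4 of 10 higher and 1 lower, T cell markers 5 of 6 lower and smooth muscle markers 4 of 8 lower; their part was not tested.

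The tumour effects were compared with each other by the difference of differences, in 1 fit of the 4 groups, where 39.7% of genes passed in either direction. Tgfb1 rose more in BA than in Apcfl/+ tumours, by 1.81 on the log2 scale (SE 0.41, adjusted p = 0.004), and by 1.29 without replicate 2 of both tumours. Smad4 differed by 1.3 (SE 0.31, adjusted p = 0.00579), with an effect of 0.84 in BA and -0.43 in Apcfl/+ tumours. Tgfbr1 differed by 0.75 (adjusted p = 0.0297), a call lost in 12 of 15 fits that left out 1 library. For Tgfbr2 the difference was 0.49 (95% interval -0.05 to 1.04, adjusted p = 0.133) and for Smad3 0.39 (-0.01 to 0.79, adjusted p = 0.109), so neither a difference nor its lack was shown. T cell markers had 5 of 6 higher in this contrast, B and plasma cell markers 4 of 6 and macrophage markers 3 of 8, and their part was not tested. BA tumours lie in the colon and Apcfl/+ tumours in the small intestine, so genotype and site cannot be told apart.

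**Figure D4:**
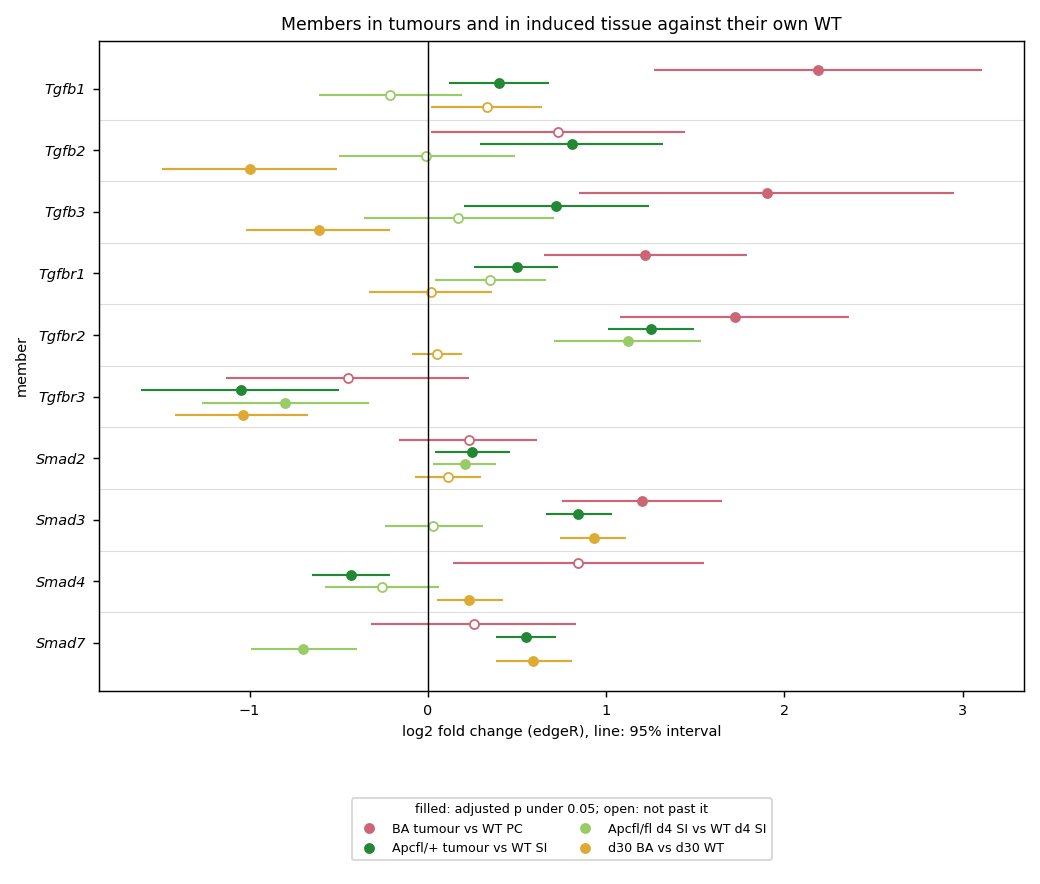
Log2 fold change of each member against its own WT, with 95% intervals as lines, in 4 comparisons that share no libraries; filled points passed an adjusted p of 0.05. Tgfb1 stood at 2.19 in BA tumours and 0.4 in Apcfl/+ tumours, and Tgfbr2 at 1.72, 1.25 and 1.12 in BA tumours, Apcfl/+ tumours and Apcfl/fl d4, but at 0.05 in d30 BA.

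Apcfl/fl small intestine, taken at d4 post induction, shared with the tumours a higher Tgfbr2. Its 10 libraries ran from 88 to 325 CPM with a median of 244, and the 6 WT d4 libraries from 75.7 to 126 CPM with a median of 113 (log2 1.12, SE 0.2, adjusted p = 0.000152). Replicate 8, which stands apart, lay within the WT range, at 88 CPM, and the other 9 lay above it. Smad7 was lower, at 22 to 50.3 CPM with a median of 37.2 against 44.8 to 83.7 CPM with a median of 60.3 (log2 -0.7, SE 0.14, adjusted p = 0.000477). Tgfbr3 was lower, at 4.75 to 20 CPM (median 16) against 16.4 to 33.2 CPM (median 26), by -0.8 (adjusted p = 0.00595).

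Smad2 was higher by 0.21 (adjusted p = 0.0448), a call lost in 9 of 16 fits without 1 library. Tgfbr1 just missed (0.35, SE 0.15, adjusted p = 0.0505) and passed at 0.53 without replicates 1 and 8 (adjusted p = 1.86e-06). Smad3 was at 0.03 and the ligands at -0.21, -0.01 and 0.17 for Tgfb1, Tgfb2 and Tgfb3, none past the threshold. Together 2 members were higher and 2 lower, against 27.5% of 17536 genes higher and 26.7% lower, or 54.2% in either direction, with a median of 0.01 over the members and 0 over all genes. Among the 4 Apcfl/fl and 3 WT libraries under 10 CPM of Gm13394, Tgfbr3 was at -0.14 (adjusted p = 0.579) and Smad4 at -0.66 (adjusted p = 0.00077), while Tgfbr2 was at 1.38. Among the 6 and 3 above it, Tgfbr2 was at 0.91 (adjusted p = 0.0498) and Smad7 at -0.49 (adjusted p = 0.1).

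In the pathway lists 13 genes were higher and 13 lower of 50 in Apcfl/fl tissue, near the 54.2% of all genes called. Latency and activation had 3 higher and 5 lower, from Itgb6, an integrin subunit, at 1.14 to Lrrc32, a cell-surface anchor of latent ligand, at -1.22. The feedback list had Tgif1 at 1.62, Pmepa1 at 1.02 and Acvrl1, an endothelial type I receptor, at -1.07. Among target genes Il11 was at 2.13 and Cdkn2b, a cell cycle inhibitor, at -2.25 (adjusted p = 2.89e-06). In the activin branch Inhba was at 1.23 and Inha at -1.27. T cell markers had 5 of 6 lower, endothelial markers 4 of 6 lower, enteric glia and neuron markers 5 of 6 lower, macrophage markers 3 of 8 lower and epithelial markers 3 of 10 lower and 1 higher. The part of those cells in the lower Tgfbr3 and Lrrc32 was not tested.

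At d30 BA proximal colon had 3 higher SMADs, 2 lower ligands and a lower co-receptor, a share of called members near that of all genes. Smad3 was at 88.8, 97.4, 110, 104 and 100 CPM in d30 BA and at 52, 49.1, 52.2 and 61.6 CPM in d30 WT, without overlap (log2 0.93, SE 0.08, adjusted p = 5.25e-06). Smad7 was at 82.4, 82.7, 89.6, 67 and 81.9 CPM against 54.8, 52.6, 47.2 and 63.5 CPM, also without overlap (log2 0.59, SE 0.1, adjusted p = 0.000432). Smad4 was higher by 0.23 (adjusted p = 0.0359), a call lost in 5 of 9 fits without 1 library and with 2 other scalings.

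Tgfbr3 was at 17.7, 15.1, 23.6, 10.9 and 16.6 CPM against 32, 33.8, 34.3 and 40.4 CPM, about 2.06-fold lower (log2 -1.04, SE 0.17, adjusted p = 0.00037). Tgfb2 was at 4.45, 2.83, 6.02, 4.8 and 2.61 CPM against 7.64, 8.42, 8.91 and 8.61 CPM (log2 -1, SE 0.22, adjusted p = 0.00278). Neither gene's groups overlapped. Tgfb3 was lower by -0.61 (adjusted p = 0.0151), with 7.57 CPM in the highest BA library and 7.53 in the lowest WT library, a call lost in 1 fit of all 5 day-30 groups (adjusted p = 0.36). Tgfb1 was at 13.5 to 21.4 CPM against 12.7 to 16.9 CPM and missed (0.33, adjusted p = 0.0644), but passed with RLE scaling (0.36, adjusted p = 0.0481) and by DESeq2 (0.36, adjusted p = 0.0446). Smad2 did not pass (0.11, adjusted p = 0.277).

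The signalling receptors did not pass at d30. Tgfbr2 was at 118, 122, 131, 118 and 112 CPM in BA and 116, 119, 122 and 116 CPM in WT, a difference of 0.05 with a 95% interval of -0.09 to 0.19. Tgfbr1 was at 50.4, 41.1, 52.1, 57.1 and 53.6 CPM against 66.1, 34.7, 46.6 and 58.4 CPM, a difference of 0.02 with an interval of -0.33 to 0.36. In all, 3 members were higher and 3 lower, where 25.8% of 17471 genes were higher and 29.3% lower, or 55.1% in either direction, and the median was 0.08 over the members and -0.03 over all genes.

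Markers moved with these genes at d30. Epithelial markers summed to 26000 to 30000 CPM in BA and 13500 to 15900 CPM in WT (9 of 10 higher). Fibroblast markers summed to 488 to 612 against 820 to 1100 CPM (7 of 10 lower), with 6 of 8 smooth muscle and 6 of 6 enteric glia and neuron markers lower. Their part in the lower Tgfb2, Tgfb3 and Tgfbr3 and in the higher Smad3 and Smad7 was not tested. Ngp, a neutrophil granule gene, was at 0 in d30 WT.

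The pathway lists were split at d30, with 19 higher and 15 lower of 48 tested, where 25.8% of all genes were higher and 29.3% lower. Itgav and Itgb6, which form an integrin that activates latent ligand, were higher by 1.46 and 1.22, and Lrrc32 was lower, at -1.06. Of 12 feedback genes tested 7 were higher and 3 lower, from Smurf1, a ubiquitin ligase that acts on receptors and SMADs, at 1.14 with Pmepa1 at 1.09, to Zfyve9 at -0.84. Among target genes Junb, a subunit of AP-1, was at 1.3 and Postn, a stromal matrix protein, at -1.17. Inhbb was higher by 1.55 and Fst, the activin antagonist follistatin, was lowest, at -1.12.

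Alk5fl/fl alone, at the same day, gave no call among the members. Tgfbr1 was at 32.3, 40.2, 59.6 and 44.6 CPM in d30 A against 66.1, 34.7, 46.6 and 58.4 CPM in d30 WT, and the groups overlapped (log2 -0.2, 95% interval -0.68 to 0.29, adjusted p = 0.72). The members ran from -0.3 for Tgfb2 to 0.23 for Tgfb3, and 0 of 10 passed by edgeR, at an unadjusted p under 0.05, by DESeq2 or by limma-voom. The background was low as well: 25 of 17713 genes, or 0.141%, passed by edgeR, and 132 by DESeq2. Of 48 pathway genes 1 was higher, Timp1 by 1.51 (adjusted p = 0.0417). Gm13394 split d30 A and d30 BA from d30 WT in the same way.

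The same alleles with BrafV600E/+ were set against d30 A, where 21.7% of 17128 genes were higher and 23.6% lower, or 45.3% in either direction, and Gm13394 does not split the groups. Smad3 was at 37.5, 47.9, 55.9 and 56.1 CPM in d30 A, below every BA library, a difference of 1.06 (SE 0.13, adjusted p = 9.87e-05). Smad7 (0.58), Smad4 (0.49) and Smad2 (0.39) were higher as well, with adjusted p from 0.00236 to 0.00934. Tgfbr3 (-1.06, adjusted p = 0.00196) and Tgfb3 (-0.81, adjusted p = 0.025) were lower, while Tgfb2 (-0.67, adjusted p = 0.0626), Tgfbr1 (0.24), Tgfbr2 (-0.03) and Tgfb1 (0.25) did not pass. The call of Tgfb3 was lost in 1 fit of all 5 day-30 groups (adjusted p = 0.2). This comparison and that of d30 BA with d30 WT share the BA libraries. Fibroblast markers had 8 of 10 lower and epithelial markers 9 of 10 higher and 1 lower; their part was not tested.

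**Figure D5:**
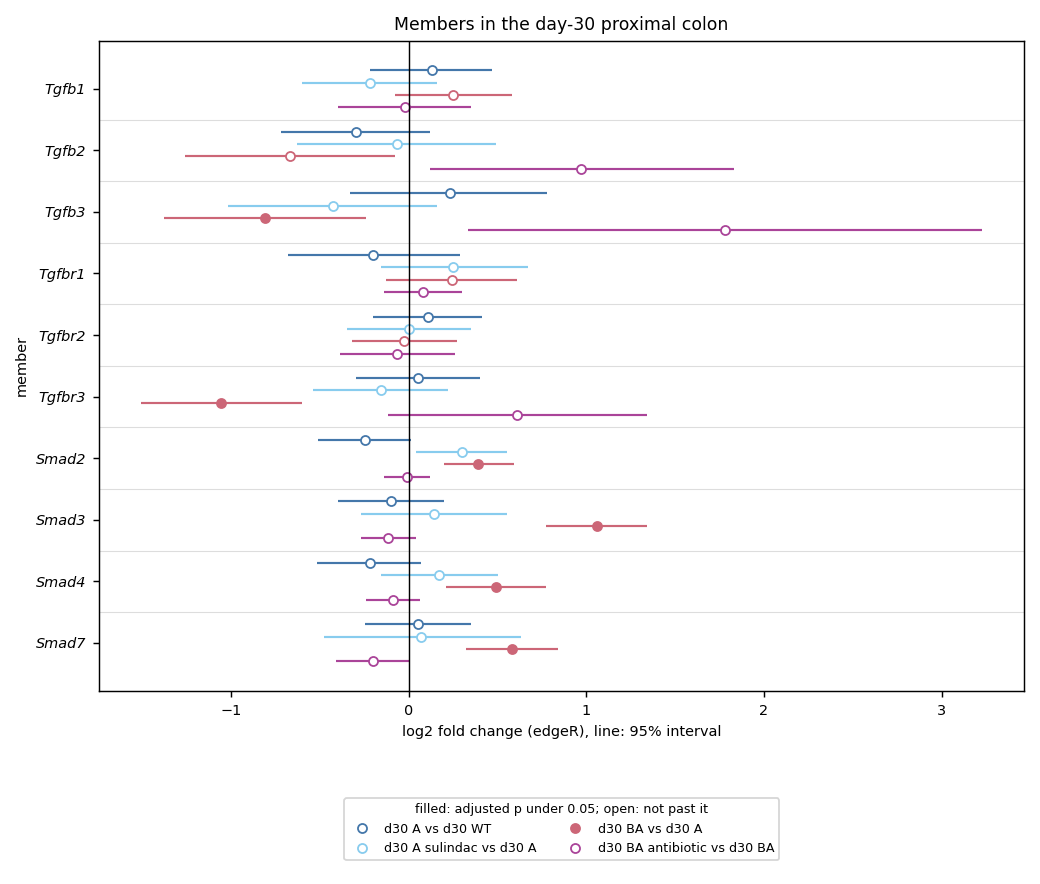
Log2 difference of each member in 4 comparisons of the day-30 proximal colon, with 95% intervals as lines; filled points passed an adjusted p of 0.05, and the comparisons share libraries. Smad3 stood at 1.06 in BA against A, and the wide intervals of Tgfb2 and Tgfb3 in antibiotic-treated against untreated BA belong to a group with 1 high library.

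Antibiotics and sulindac left few member differences. Antibiotic-treated d30 BA had Smad3 at 88.9, 99.9, 96.9, 85.3 and 92.9 CPM, higher than d30 WT by 0.82 (SE 0.08, adjusted p = 3.68e-05), and Smad7 higher by 0.4 (adjusted p = 0.0126), where 39.6% of 17569 genes passed and 21.8% were higher. Without d30 WT replicate 3, 1 member passed. Against untreated BA 0 members passed by edgeR, DESeq2 and limma-voom and 2 had an unadjusted p under 0.05, where 13.0% of 16680 genes passed. Smad3 differed by -0.12 (95% interval -0.27 to 0.04). Tgfb3 (1.78, adjusted p = 0.0975) and Tgfb2 (0.97, adjusted p = 0.118) missed, with replicate 3 high in both.

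That antibiotic-treated replicate held Tgfb3 at 67 CPM (4.81 to 13.2 in the other 4), Tgfb2 at 16.6 (3.92 to 7.73), Tgfbr2 at 166 (94.2 to 112) and Tgfbr3 at 49.7 CPM (12.8 to 24.1). It also held Dcn, a fibroblast proteoglycan, at 1390 CPM (114 to 248) and Col1a1, a collagen chain, at 1530 CPM (153 to 212). Without it Tgfb3 was at 0.52 and Tgfb2 at 0.51 against untreated BA, neither past the threshold, and 1 member, Tgfbr2, passed at -0.25 (adjusted p = 0.038). Against d30 WT Tgfbr3 then passed at -0.83 (adjusted p = 0.00359).

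Of 49 pathway genes tested 1 was higher and 7 lower in antibiotic-treated than in untreated BA, near the 13.0% of all genes called. Cdkn2b was at -0.95 (adjusted p = 0.00315), Itgav at -0.61, Skil, a SMAD co-repressor, at -0.58 (adjusted p = 0.00462) and Acvr1b at -0.42, while Cdkn1a was higher by 0.53 (adjusted p = 0.00769). Sulindac-treated A had 0 of 10 members called against d30 WT, where 0.0507% of 17742 genes passed and 0 members had an unadjusted p under 0.05, and against untreated A, where 0 of 17568 genes passed by edgeR (460 at an unadjusted p under 0.05, 7 by DESeq2 and 0 by limma-voom). Against untreated A Smad2 differed by 0.3 (95% interval 0.04 to 0.55), which did not pass the adjusted threshold. Its mean was 50.2 CPM in sulindac-treated A and 48.7 CPM in d30 WT. In untreated A it was 40.4 CPM, the lowest of the 11 groups. Tgfbr1 was at 54.2, 55.3, 44.7 and 58.4 CPM in sulindac-treated A and differed from untreated A by 0.25 (95% interval -0.16 to 0.67).

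The changes at tumour stage and at d30 in BA mice were set against each other, with 16.3% of genes called in the difference of differences. The log2 change was higher in tumours for all 3 ligands and both signalling receptors, with differences for Tgfb3 of 2.5 (SE 0.49, adjusted p = 0.00281), for Tgfb1 of 1.84 (0.4, 0.00536), for Tgfb2 of 1.72 (0.38, 0.00584), for Tgfbr2 of 1.66 (0.22, 0.00019) and for Tgfbr1 of 1.2 (0.28, 0.00914). For Tgfb2 the change was 0.73 in tumours, which did not pass, and -1 at d30, and for Tgfb3 it was 1.9 and -0.61. These 5 passed in each fit without 1 library. The WT groups enter these differences too. Tgfb1 was at 6.74 to 9.55 CPM in WT PC and 12.7 to 16.9 CPM in d30 WT. Tgfb2 was at 2.95 to 6.56 CPM in WT PC and 7.64 to 8.91 CPM in d30 WT, with 7.31 to 8.22 CPM in BA tumours. For both, part of the difference thus lies between the WT groups. Tgfb3 and Tgfbr1 overlapped between WT PC and d30 WT, and Tgfbr2 had means of 109 and 118 CPM. For Smad3 the difference was 0.27 (95% interval -0.11 to 0.64, adjusted p = 0.336). In the same contrast 7 of 10 epithelial markers were lower and 5 of 6 endothelial, 5 of 10 fibroblast, 5 of 8 macrophage, 4 of 6 tested neutrophil and 4 of 6 B and plasma cell markers higher, and their part was not tested. The d30 samples and the tumours differ in time as well as in the tissue taken, and these cannot be told apart. Ddx3y was above 10 CPM in 3 of 4 BA tumours and 0 of 3 WT PC, but in all d30 BA and d30 WT libraries. By this gene sex differs within the tumour change but not within the d30 change. Gm13394 differed between BA and WT at both stages. The part of sex and of what Gm13394 marks cannot be told apart from stage either.

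Apcfl/+ tumours and Apcfl/fl d4 tissue were compared in the same way, with 24.7% of genes called. They differ in Apc alleles, in time, in the tissue taken and, with their WT groups, in background (N9 against N6). Ddx3y was above 10 CPM in 1 of 5 Apcfl/+ tumours and 3 of 3 WT SI. It was so in 4 of 10 Apcfl/fl d4 and 4 of 6 WT d4 libraries. These cannot be told apart. Smad7 differed by 1.22 (SE 0.23, adjusted p = 0.000651), being higher by 0.55 in the tumours and at -0.7 at d4. Smad3 differed by 0.78 (SE 0.21, adjusted p = 0.0103), with 0.84 in tumours and 0.03 at d4. Without Apcfl/fl replicate 5, 4 members passed in place of 2. The difference in Tgfbr2 was 0.09 (95% interval -0.51 to 0.69, adjusted p = 0.865). Neutrophil markers had 5 of 6 tested higher in this contrast, endothelial markers 4 of 6, fibroblast markers 5 of 10, epithelial markers 3 of 10 and macrophage markers 1 of 8, with 2 of 6 T cell markers lower; their part was not tested. Over the 4 comparisons against WT that share no libraries, Tgfbr2 and Smad3 were each higher in 3 and Tgfbr3 lower in 3. Of all genes tested, 13.2% passed in BA tumours, 61.5% in Apcfl/+ tumours, 54.2% in Apcfl/fl d4 and 55.1% in d30 BA. A tally of calls thus says little by itself.

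For each member the genes with the most similar means over the 11 groups were sought among 10577 genes, as a description. The groups share tissue of origin, and with 11 points high correlations are common. Tgfbr3 was closest to Scn7a (Pearson r = 0.974) and Akap12 (0.968), Smad3 to Rab31 (0.973) and Sh3kbp1 (0.973), Tgfbr1 to Lamc1 (0.968) and Piezo1 (0.967), and Tgfb3 to Fgf2 (0.964) and Kirrel (0.949). Tgfb2 was closest to Il1r1 (0.953) and Col5a3 (0.931), Tgfbr2 to Syngr1 (0.946) and Snx8 (0.933), Smad4 to Sema4d (0.942) and Pmaip1 (0.919), and Smad2 to Kbtbd2 (0.938) and Tns3 (0.938). The lowest were those of Smad7, with Mfap1a (0.912) and Cwc25 (0.875), and of Tgfb1, with Ptpn1 (0.877) and Msn (0.871).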

How the data were processed

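Total RNA of whole intestinal tissue was sequenced with a TruSeq v2 kit, in paired reads of 36 bases. The deposited values were raw counts per gene: per the submitters' processing notes and the methods, the authors used FastQC 0.11.8, Trim Galore 0.6.4, HISAT2 2.1.0 and featureCounts 1.6.4, on GRCm38 with GENCODE annotation. The counting strand is not given in the sources used here, so reads of overlapping genes are uncertain.

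Groups came from the sample labels, and the study states in general that replicates were independent animals, which the labels do not give per sample. Each comparison was fitted alone on its own libraries with edgeR 4.0.16 (filterByExpr, TMM scaling, quasi-likelihood F test, Benjamini-Hochberg adjustment over all genes tested, called at 0.05), and differences of differences in 1 fit of the groups involved. SEs are the log2 change divided by the square root of F. CPM levels used TMM over all 53 libraries. A level of 3 counts was taken as the floor. Counting error is smallest in the deepest libraries, whose totals reached 32824795, and widest in Apcfl/fl d4 replicate 1, with 516985. No library was identical to another (0 pairs).

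The members, the pathway lists and the marker lists were chosen with earlier results of these data known. All 10 members were described, with the genes of largest and smallest change of each pathway list, up to 6 more a comparison, any marker gene, and for each member the 2 genes (average log2 CPM of at least 3) closest in Pearson r over group means. Alternatives were RLE, upper quartile and library-total scaling, DESeq2 1.42.0, limma 3.58.1 voom, no filter on low counts, a replicate block, 1 fit of the day-30 groups and leaving out each library. Fits without the libraries that stand apart and splits by Gm13394 were chosen after seeing the data. Scripts were tested on simulated data (R 4.3.3, Python 3.11.15). Some named genes of these lists are not reported here.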

Additional observations from a re-analysis of the deposited data

Results flagged for a closer look

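In a search of 90 pairs of a member and a group of 4 to 10 libraries, 5 pairs had 1 library farther from the rest than Dixon's 95% limit, and chance flags about 1 in 20. Tgfb1 was at 41 CPM and Tgfb3 at 19.5 CPM in Apcfl/fl d4 replicate 5, where the other 9 libraries held 10.5 to 21.4 and 4.7 to 8.82 CPM. Antibiotic-treated d30 BA replicate 3 held Tgfb3 at 67 CPM (4.81 to 13.2 in the others) and Tgfbr2 at 166 CPM (94.2 to 112). Smad4 was at 119 CPM in Apcfl/+ tumour replicate 1, with 97.1 to 103 CPM in the other 4.

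In 10 cases the changes of a member differed between comparisons by the test of the difference itself, on the log2 scale. They were 3, 5 and 2 of the 10 members in the order below, where 39.7%, 16.3% and 24.7% of all genes tested passed. The change against WT was higher in BA than in Apcfl/+ tumours for Tgfb1 (1.81), Smad4 (1.3, with changes of 0.84, not called, and -0.43) and Tgfbr1 (0.75). It was higher in BA tumours than in d30 BA tissue for Tgfb3 (2.5, with changes of 1.9 and -0.61), Tgfb1 (1.84), Tgfb2 (1.72, with changes of 0.73, not called, and -1), Tgfbr2 (1.66) and Tgfbr1 (1.2). It was higher in Apcfl/+ tumours than in Apcfl/fl d4 tissue for Smad7 (1.22, with changes of 0.55 and -0.7) and Smad3 (0.78).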

How the results depend on the processing

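Of 2470 alternative values of the members, 2351 kept direction and side of the threshold, 87 lost and 32 gained significance, and 0 reversed a called sign. With the replicate number as a block, called members went from 5 to 2 in BA tumours, from 10 to 6 in Apcfl/+ tumours and from 2 to 1 in antibiotic-treated BA against WT, and all called genes to 848, 8211 and, for antibiotic-treated against untreated BA, 1284 (sulindac against WT 2, against A 1). In d30 BA against WT the block lost Tgfb3 (-0.55, edgeR adjusted p = 0.0543) and gained Tgfb1 (0.43, edgeR adjusted p = 0.00686). Deviations of same-numbered samples correlated at r -0.44 to 0.23, and in no comparison were all pairs above 0.1. With 3 to 6 pairs a comparison, this cannot show whether such samples share more than a number. Upper quartile scaling called 6 members in Apcfl/+ tumours, and library totals alone called 1 in Apcfl/+ minus Apcfl/fl. DESeq2 called 132 genes in d30 A, 109 in sulindac-treated A against WT and 7 against A, and no filter 72, 24 and 1. In 1 fit of the day-30 groups, antibiotic-treated BA had 1 member against WT and 1 against BA (1074 genes), and sulindac against WT 29 genes. The Apcfl/fl libraries over 10 CPM of Gm13394 gave 5490 genes, and those under it Bambi at 0.82. Apcfl/+ minus Apcfl/fl gave 8372 genes without the libraries that stand apart. The cause was not tested.

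Leaving out 1 library gave 1 to 6 called members in BA tumours (696 to 3641 genes), 1 to 3 in antibiotic-treated BA against WT, 0 to 1 against BA (1300 to 2683 genes) and 2 to 4 in Apcfl/+ minus Apcfl/fl (3603 to 7295 genes). Genes called ran from 15 to 28 in d30 A, 4 to 18 in sulindac-treated A against WT and 2225 to 5051 in BA tumour minus d30 BA. In antibiotic-treated BA against WT Ltbp3 ran from -0.61 to 0.46 and Nrros from -0.45 to 0.21, and against BA Mmp14 from -0.33 to 0.3, the lowest without antibiotic replicate 3.

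Scaling moved the share of called genes that were higher: with upper quartile and library-total scaling from 46.9% to 35.9% (totals: 2949 higher, 6781 lower) in d30 BA against WT, from 48% to 31.6% and 24.7% in BA against A, from 55% to 43.9% and 39.9% in antibiotic-treated BA against WT, and from 34.8% to 46.4% and 51.4% against BA. Upper quartile scaling moved it from 51.1% to 40.3% in Apcfl/+ tumours, and library totals from 50.7% to 71% in Apcfl/fl tissue and from 60.4% to 78.8% in BA tumour minus d30 BA. In Apcfl/+ minus Apcfl/fl it went from 50.3% to 37.8% with RLE scaling, and totals gave 1634 higher and 3718 lower. The median of all genes moved to between -0.28 (BA against A, totals) and 0.27 (Apcfl/fl, totals) on the log2 scale. Depth limits Apcfl/fl d4 replicate 1, whose members held 2 to 125 counts.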
